A study of Mus musculus with 14 samples.

Results

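The *Tsc22d* family is a set of 4 mouse genes, *Tsc22d1*, *Tsc22d2*, *Tsc22d3* and *Tsc22d4*, whose member *Tsc22d3* encodes GILZ, the glucocorticoid-induced leucine zipper. Members were the genes of that name, and their probes were every probe of the array whose RefSeq accession led to one of the 4 symbols. The rule found all 4 genes, out of 19096 genes that the array named, on 8 of 41174 probes. *Tsc22d1* had 1 probe, *Tsc22d2* had 2, *Tsc22d3* had 2 and *Tsc22d4* had 3, and each of the 8 probes was well above background on every one of the 14 arrays.

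The arrays were 1-colour Agilent arrays of total RNA from colon tissue of C57BL/6 male mice, 1 mouse per array, in a study of glucocorticoid action in the gut. Flox mice carried loxP sites in the gene of the glucocorticoid receptor (GR, *Nr3c1*) without Cre and kept the receptor. GR iKO mice, the knockouts, carried the same floxed gene and Cre under the Villin promoter, which acts in the intestinal epithelium, so the model leaves GR in smooth muscle, stromal, vascular and immune cells of the colon. Mice of all 4 groups were adrenalectomized (ADX), lived on chow diet, and were 8 to 10 weeks old per the labels, although the study's text describes older mice. At 2 weeks after ADX, they received either PBS or 1 mg/kg of the synthetic glucocorticoid dexamethasone (DEX), and the colon was taken 6 hours later. The groups, taken from the sample titles because the treatment text of the labels describes DEX for all of them, held 4 Flox PBS mice (numbers 1, 2, 3 and 4), 3 Flox DEX mice (1, 2 and 4), 3 GR iKO PBS mice (2, 3 and 4) and 4 GR iKO DEX mice (1, 2, 3 and 4). Each group was hybridized on a slide of its own, so that slide and group cannot be told apart, and in RNA of a whole tissue fewer cells of a type and less RNA per cell cannot be told apart either.

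TSC22 domain proteins share a short conserved domain followed by a leucine zipper, through which they pair with each other and with other proteins. *Tsc22d1* was first found as a transcript that transforming growth factor beta induces, whereas *Tsc22d3* is a direct target of GR in many tissues and its product GILZ carries part of the anti-inflammatory action of glucocorticoids by binding NF-kB and AP-1 proteins. The longer family proteins bind the pseudokinases NRBP1 and NRBP2 and the WNK kinases, which control cell volume and ion transport.

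DEX raised *Tsc22d3* in colon of both genotypes, by 3.75-fold in Flox mice and 3.06-fold in knockouts, and these were the largest changes among the members. *Tsc22d2* was also higher after DEX in both genotypes, by 1.68-fold and 1.71-fold, on its brighter probe. For *Tsc22d4*, 2 of 3 probes were called higher after DEX in GR iKO mice, by 1.59-fold on its second-brightest probe, and *Tsc22d1* passed the test in no comparison.

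A probe was called when limma, fitted to all probes and all 4 groups, gave an adjusted p under 0.05, with no minimum fold. In Flox mice, 3 of the 8 probes, from 2 of the 4 genes, were called, all of them higher after DEX, where 3.17% of all probes tested were called, 1.63% higher and 1.54% lower. In GR iKO mice, 5 of the 8 probes, from 3 genes, were called, all of them higher after DEX, where 11.7% of all probes were called, 8.15% higher and 3.53% lower. These numbers of all probes moved with single arrays: with each array left out in turn, the 1304 calls in Flox mice became 300 (without Flox DEX mouse 1) to 1903, and the 4808 calls in knockouts 2722 (without GR iKO PBS mouse 4) to 4908. The median change of the 8 probes was 0.21 on the log2 scale in Flox mice, beside 0.06 for all probes, and 0.67 in knockouts, beside 0.09 for all probes. The change was above 0 on 8 of 8 probes in each genotype, but on 7 of 8 in each in the authors' log2 table and under both quantile normalizations, and under normexp on 7 of 8 in Flox mice and 8 of 8 in knockouts. The exceptions were the dimmest *Tsc22d4* probe in Flox mice and the second *Tsc22d2* probe in knockouts, and under normexp the brightest *Tsc22d4* probe in Flox mice.

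For the difference between the 2 responses, limma called 0 of 8 probes, where 0.253% of all probes were called, and 2 of 8 had an unadjusted p under 0.05, as 12.1% of all probes did. Between genotypes after PBS, limma called 0 of 8, where 0.160% of all probes were called, with 1 of 8 at an unadjusted p under 0.05, beside 7.79% of all probes. Between genotypes after DEX it also called 0 of 8, where 0.284% of all probes were called, with 5 of 8 at an unadjusted p under 0.05, beside 13.6% of all probes. With each array left out, the 104, 66 and 117 calls among all probes in these 3 comparisons ran from 38 to 237, from 25 to 204 and from 21 to 222. The methods' t-test on the brightest probes of the 4 genes gave 0 of 4 genes after PBS and 2 of 4 after DEX, *Tsc22d1* and *Tsc22d3*, without adjustment, and 0 of 4 in each after Benjamini-Hochberg adjustment. The Flox and GR iKO responses share no array, whereas each comparison between genotypes shares its arrays with them.

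*Tsc22d3* encodes the GILZ proteins, and several of its transcripts start at different promoters. Its 3 promoter windows in the RefSeq table (build GRCm38.p6) are shown because the gene was induced by a GR ligand also in mice whose epithelial GR gene was deleted. Each window is the stretch of 250 bases before a transcription start, on the minus strand of chromosome X, written 5′ to 3′. Capitals mark matches, on either strand, to AGAACA, the hexamer that makes up each arm of a GR binding element, or to the FOXO motif GTAAACA.

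*Tsc22d3* window 1, chrX:140600523-140600772: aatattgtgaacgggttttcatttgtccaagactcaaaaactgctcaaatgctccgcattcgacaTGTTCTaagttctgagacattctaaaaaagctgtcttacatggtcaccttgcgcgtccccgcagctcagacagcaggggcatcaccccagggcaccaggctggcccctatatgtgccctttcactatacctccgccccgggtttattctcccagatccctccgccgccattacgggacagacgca
*Tsc22d3* window 2, chrX:140548572-140548821: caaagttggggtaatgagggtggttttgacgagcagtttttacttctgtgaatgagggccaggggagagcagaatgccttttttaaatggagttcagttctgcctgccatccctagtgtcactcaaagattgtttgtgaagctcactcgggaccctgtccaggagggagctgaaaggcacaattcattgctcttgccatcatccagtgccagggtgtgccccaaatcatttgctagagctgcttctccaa
*Tsc22d3* window 3, chrX:140542669-140542918: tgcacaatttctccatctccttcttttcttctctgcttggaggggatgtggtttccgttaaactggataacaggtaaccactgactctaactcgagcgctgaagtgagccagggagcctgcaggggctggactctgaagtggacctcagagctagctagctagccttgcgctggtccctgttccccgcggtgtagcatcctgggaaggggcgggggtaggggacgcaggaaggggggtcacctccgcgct

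Window 1 held 1 match to the hexamer, read on the opposite strand at positions -185 to -180 from the start, and windows 2 and 3 held none. The hexamer occurred on either strand in 16.1% of 32851 windows of the same length and the FOXO motif in 3.17%, so neither is rare, and the 3 *Tsc22d3* windows held no match to the FOXO motif. A complete GR palindrome, which joins the hexamer to its reverse complement across 3 bases, was in 3 of the 32851 windows (0.00913%) and in none of the windows of the members. Of the other members, *Tsc22d1* had 5 windows in the table, with 1 hexamer match in window 4, and *Tsc22d2* and *Tsc22d4* were not in it. A match is a run of letters and was not tested as a binding site, and bases outside the 250 of each window were not searched.

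Values are given for every mouse as log2 signal after subtracting the 75th percentile on that array, in the order of the mouse numbers. On the brightest *Tsc22d3* probe (A_51_P235821), the Flox PBS mice had 1.70, 1.65, 1.22 and 1.66, and the Flox DEX mice had 3.70, 3.45 and 3.24. Every Flox DEX mouse was above every Flox PBS mouse, and the lowest value of the PBS group, 1.22 in mouse 3, stood apart from its other 3 mice. In GR iKO colon the PBS mice had 1.03, 1.54 and 1.21 and the DEX mice 3.05, 2.81, 3.04 and 2.60. Here too the 2 groups did not overlap, and all 7 DEX mice of the 2 genotypes were above all 7 PBS mice. The scanner's intensities behind these values ran from 1546 to 9567 units.

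The group means were 1.55 ± 0.23 in Flox PBS (SD, n = 4), 3.46 ± 0.23 in Flox DEX (n = 3), 1.26 ± 0.26 in GR iKO PBS (n = 3) and 2.87 ± 0.21 in GR iKO DEX (n = 4). *Tsc22d3* rose by 1.91 in Flox mice (SE 0.17, 95% interval 1.53 to 2.29), with an adjusted p of 0.000686 by limma. Among knockouts it rose by 1.61 (SE 0.17, 95% interval 1.23 to 1.99), with an adjusted p of 0.000865. Among all probes it ranked 8 of 41173 by p and 208 by the size of the rise in Flox mice, and 37 of 41174 and 1098 in knockouts. The exact permutation test gave p = 0.0286 for each response, the smallest value that the 35 ways of dividing 7 mice allow, so that the number of arrays limits its precision.

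The test of the difference between the 2 responses asks whether loss of GR from the epithelium changes the induction of *Tsc22d3*. The GR iKO response was 0.29 smaller than the Flox response, written as -0.29 (95% interval -0.83 to 0.24, adjusted p = 0.703 by limma), so the interval held both 0 and a response smaller by 0.83. It was -0.15 without GR iKO PBS mouse 3, -0.18 without Flox DEX mouse 1 and -0.18 without Flox PBS mouse 3, and over all arrays left out in turn it reached -0.41. After DEX, the 4 GR iKO mice (2.60 to 3.05) were all below the 3 Flox mice (3.24 to 3.70), with a gap of 0.19. That difference of -0.59 (SE 0.17, 95% interval -0.97 to -0.21) had an unadjusted p of 0.00541 and an adjusted p of 0.173 by limma, and the exact permutation p was 0.0286. After PBS, the genotypes overlapped, with a difference of -0.29 and an adjusted p of 0.771.

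Background correction by normexp moved the median change of all probes by 0.45 for DEX in Flox mice, by -0.34 for the difference between the responses, by -0.11 between genotypes after PBS and by -0.45 after DEX. Relative to that median, the *Tsc22d3* rise under normexp was 1.26 in Flox mice and 1.42 in knockouts, beside 1.84 and 1.53 on the main values. The difference between genotypes after DEX was -0.41 under normexp as measured, and relative to the median of all probes it was -0.0034. The difference between the responses was -0.16 under normexp as measured, the same sign as on the main values, and 0.15 relative to the median of all probes.

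The second *Tsc22d3* probe (A_52_P600518) was named for the same gene and measured in the same mice, so it adds no replicates. Its values were -0.27, -0.05, -0.33 and -0.03 in the Flox PBS mice and 1.81, 1.38 and 1.23 in the Flox DEX mice. Those of GR iKO mice were -0.84, -0.30 and -0.58 after PBS and 0.79, 0.73, 0.78 and 0.60 after DEX. All 4 GR iKO DEX mice lay between the Flox PBS and the Flox DEX mice, without overlap on either side. DEX raised this probe by 1.64 in Flox mice (SE 0.16, adjusted p = 0.000752 by limma) and by 1.29 in knockouts (SE 0.16, adjusted p = 0.00134). The difference between the responses was -0.35 (95% interval -0.83 to 0.14, adjusted p = 0.597), and the difference between genotypes after DEX was -0.75 (SE 0.16, unadjusted p = 0.000485, adjusted p = 0.0787). After PBS the genotypes overlapped on this probe and differed by -0.40 (unadjusted p = 0.0256 and adjusted p = 0.524 by limma).

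A further probe (A_51_P235816), outside the rule because its accession is not a RefSeq one, is named *Tsc22d3* in the study's supplement. It rose by 2.06 in Flox mice (SE 0.18) and by 1.84 in knockouts (SE 0.18), with adjusted p values of 0.000686 and 0.000641 by limma. After DEX, its genotypes differed by -0.49, with an adjusted p of 0.270 and an exact permutation p of 0.0571.

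**Figure D1:**
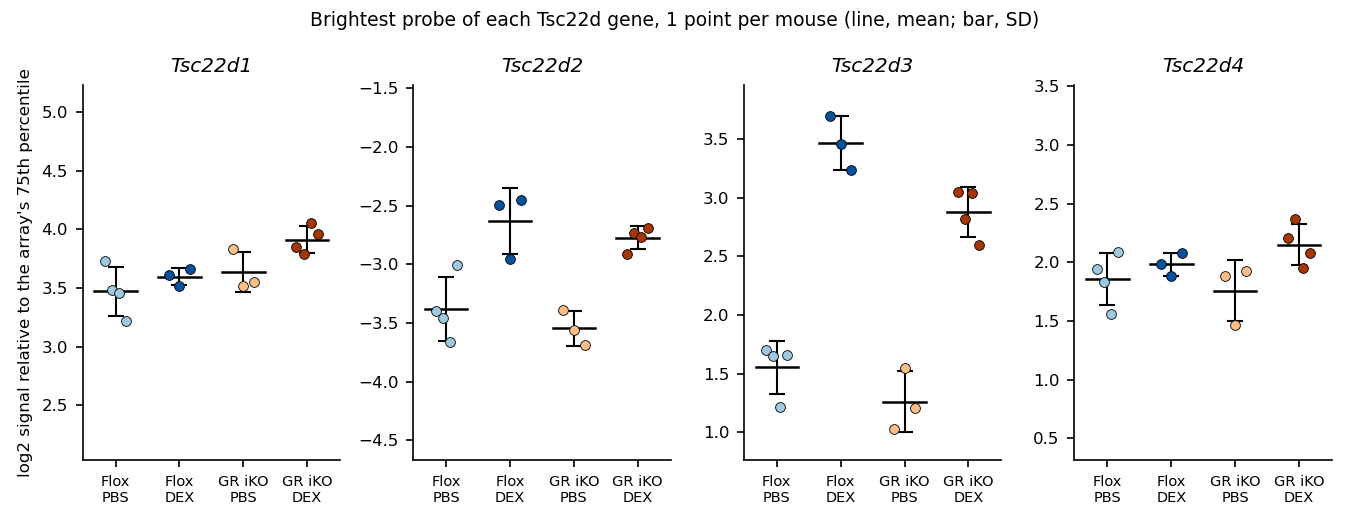
Log2 signal above the array's 75th percentile on the brightest probe of each *Tsc22d* gene, with 1 point per mouse, a line at the group mean and a bar for the SD; each panel spans the same range of log2 units. *Tsc22d3* separates all DEX mice from all PBS mice, and in the DEX groups the GR iKO mice (2.60 to 3.05) lie below the Flox mice (3.24 to 3.70).

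The plot of values by mouse shows SDs within a group between 0.07, for *Tsc22d1* in Flox DEX, and 0.28, for *Tsc22d2* in Flox DEX, beside rises of 1.91 and 1.61 for *Tsc22d3*.

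*Tsc22d2* encodes a long TSC22 domain protein that partners with NRBP1. On its brighter probe (A_52_P706621), with intensities of only 55 to 131 units, the Flox PBS mice had -3.40, -3.46, -3.66 and -3.00 and the Flox DEX mice -2.50, -2.95 and -2.45. The 2 groups did not overlap, but the gap was 0.05, between Flox PBS mouse 4 and Flox DEX mouse 2. Among GR iKO mice the values were -3.39, -3.56 and -3.69 after PBS and -2.91, -2.73, -2.76 and -2.69 after DEX, again without overlap.

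*Tsc22d2* rose by 0.75 in Flox mice (SE 0.16, 95% interval 0.39 to 1.10, adjusted p = 0.0318 by limma) and by 0.77 in knockouts (SE 0.16, 95% interval 0.42 to 1.13, adjusted p = 0.0127). The difference between the responses was 0.03 (95% interval -0.48 to 0.53, adjusted p = 0.989). It was negative under 5 of the alternatives, among them the authors' table (-0.06) and normexp (-0.30). Relative to the median of all probes, the normexp value was 0.01. Genotypes differed by -0.17 after PBS and by -0.14 after DEX, with adjusted p values of 0.842 and 0.724. The call in Flox mice ended without Flox DEX mouse 1 (adjusted p = 0.121), without Flox DEX mouse 4 (0.0969), without Flox PBS mouse 2 (0.0716) and without Flox PBS mouse 3 (0.0832). The 13 other settings included the exact permutation test and the methods' t-test without adjustment, where a call was an unadjusted p under 0.05. Of the 13, 5 kept the call in Flox mice and 9 kept that in knockouts. Under normexp both ended, with adjusted p values of 0.205 and 0.539 by limma. The second, dimmer *Tsc22d2* probe (A_51_P110725, intensities 20 to 47) was not called, at 0.28 in Flox mice (adjusted p = 0.435 by limma) and 0.05 in knockouts (adjusted p = 0.878). In GR iKO mice its value was -0.60 when quantiles were equalized within 3 parts of the array rows, opposite in sign to the brighter probe.

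*Tsc22d4* encodes another long TSC22 domain protein. On its brightest probe (A_51_P284466) the Flox PBS mice had 1.94, 1.84, 1.56 and 2.09 and the Flox DEX mice 1.98, 1.89 and 2.08, with full overlap. GR iKO mice had 1.88, 1.47 and 1.93 after PBS and 2.21, 2.36, 1.95 and 2.08 after DEX, with a gap of 0.02 between the groups. The changes were 0.13 in Flox mice (SE 0.15, adjusted p = 0.695 by limma) and 0.39 in knockouts (SE 0.15, 95% interval 0.06 to 0.72, adjusted p = 0.116).

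The other 2 *Tsc22d4* probes passed the test in GR iKO mice. On the second-brightest (A_52_P384392) the GR iKO PBS mice had -0.42, -0.71 and -0.43 and the GR iKO DEX mice 0.10, 0.45, 0.19 and -0.16, a rise of 0.67 (SE 0.15, 95% interval 0.33 to 1.00, adjusted p = 0.0180 by limma). In Flox mice it read -0.37, -0.20, -0.70 and -0.26 after PBS and -0.23, -0.30 and -0.22 after DEX, a change of 0.13 (adjusted p = 0.681). The GR iKO DEX mice were above all 10 other mice on this probe. On the dimmest probe (A_51_P215896), which belongs to a different transcript record of *Tsc22d4* and had intensities of 43 to 73 units, the GR iKO DEX mice had -3.25, -3.11, -3.05 and -3.44 and the GR iKO PBS mice -3.91, -3.88 and -3.84. That was a rise of 0.66 (SE 0.16, adjusted p = 0.0208 by limma), beside a change of 0.05 in Flox mice (adjusted p = 0.886).

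The responses of these 2 *Tsc22d4* probes differed between genotypes by 0.54 (95% interval 0.06 to 1.01, unadjusted p = 0.0294, adjusted p = 0.341 by limma) and by 0.61 (95% interval 0.12 to 1.10, unadjusted p = 0.0181, adjusted p = 0.288). A difference between genotypes in the response of *Tsc22d4* was therefore not called, although its brightest probe pointed the same way, at 0.27 (95% interval -0.20 to 0.74, adjusted p = 0.693). With each array left out, the value of the brightest probe ran from 0.12 (without GR iKO PBS mouse 3) to 0.37 (without Flox PBS mouse 3). The DEX call of the dimmest probe in knockouts ended in the authors' log2 table (0.47, adjusted p = 0.0632) and under quantile normalization (0.47, adjusted p = 0.0624), and both probes' calls ended under normexp, where the second-brightest probe was at 0.60 (adjusted p = 0.180) and the dimmest at 0.45 (0.817). Under normexp the difference between the responses of the dimmest probe was -0.13, the opposite sign, and 0.19 relative to the median of all probes, whereas that of the second-brightest probe was 0.49. Over these scalings the adjusted p ran from 0.0181 to 0.180 on the second-brightest probe and from 0.0184 to 0.817 on the dimmest.

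*Tsc22d1* encodes TSC-22, the founding member. Its probe (A_51_P341918) had 3.73, 3.48, 3.46 and 3.22 in Flox PBS mice and 3.61, 3.52 and 3.66 in Flox DEX mice. Among knockouts it had 3.83, 3.52 and 3.55 after PBS and 3.85, 3.79, 4.05 and 3.96 after DEX. The PBS and DEX groups overlapped in each genotype, whereas the 4 GR iKO DEX mice were all above the 3 Flox DEX mice, with a gap of 0.13. By limma, the changes were 0.13 in Flox mice (SE 0.13, adjusted p = 0.642) and 0.28 in knockouts (SE 0.13, unadjusted p = 0.0460, adjusted p = 0.171). The genotypes differed by 0.32 after DEX (SE 0.13, unadjusted p = 0.0270, adjusted p = 0.300, exact permutation p = 0.0286) and by 0.16 after PBS (adjusted p = 0.842), and the responses differed by 0.15 (adjusted p = 0.802).

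**Figure D2:**
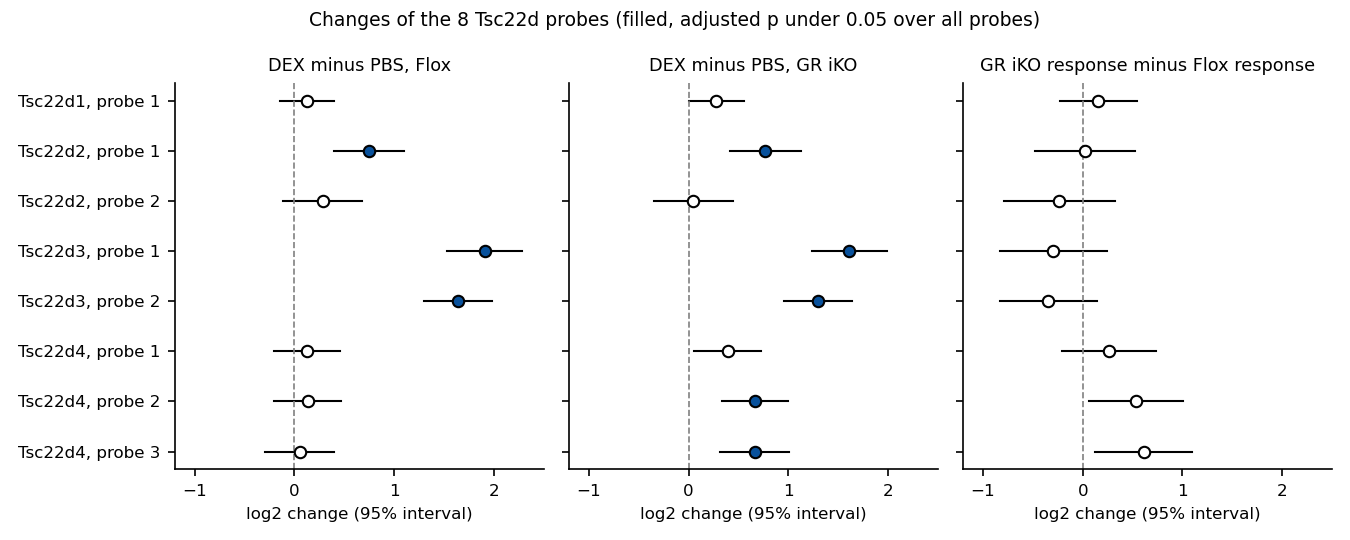
Log2 change with its 95% interval (horizontal line) for each of the 8 probes, numbered from brightest to dimmest within a gene, for DEX against PBS in each genotype and for the difference between the 2 responses; filled circles have an adjusted p under 0.05 over all probes. In the right panel 0 of 8 circles is filled, and the intervals of *Tsc22d4* probes 2 and 3 lie above 0.

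The plot of changes by probe sets the responses of the genotypes side by side: the 2 *Tsc22d3* probes lay furthest to the right in both, and the *Tsc22d4* probes were near 0 in Flox mice.

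Ordered by level on its brightest probe, *Tsc22d3* was highest in Flox DEX, then GR iKO DEX, Flox PBS and GR iKO PBS, and of these neighbours only the PBS groups overlapped. *Tsc22d2* had the same order, but the 2 DEX groups overlapped and so did the 2 PBS groups. *Tsc22d4* ran from GR iKO DEX through Flox DEX and Flox PBS to GR iKO PBS with overlap at each step. *Tsc22d1* ran from GR iKO DEX through GR iKO PBS and Flox DEX to Flox PBS, also with overlap at each step.

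In the authors' log2 table, which was quantile normalized, the brightest *Tsc22d3* probe had means of 10.97 ± 0.23, 12.86 ± 0.22, 10.67 ± 0.26 and 12.29 ± 0.22 in Flox PBS, Flox DEX, GR iKO PBS and GR iKO DEX (SD). The changes in that table were 1.89 and 1.62, and the difference between them -0.28. In GR iKO mice the median of all probes was 0.09 on the scanner values and -0.02 in the table, a shift of -0.11. Relative to the median of all probes, the *Tsc22d3* rise in GR iKO mice was 1.53 on the scanner values and 1.64 in the table, and under quantile normalization, which shifted the median by -0.10, it was 1.64. The *Tsc22d2* rise relative to that median was 0.68 on the scanner values and 0.62 in the table.

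The 8 named genes whose profile over the 14 arrays was most like that of the brightest *Tsc22d3* probe were chosen by the root mean square difference of their mean-centred log2 values, over 29007 probes of 15626 genes that were well above background throughout at least 1 group. They were *Efhc2* (0.325), *Klf15* (0.346), *Vldlr* (0.347), *Adamts1* (0.354), *Adamts3* (0.378), *Cfap100* (0.380), *Rbmxl2* (0.399) and *Sesn1* (0.423), where the median of all probes was 0.911. By the same measure the second *Tsc22d3* probe was at 0.201 and the probe outside the rule at 0.113. Of the other members, *Tsc22d2* was at 0.568, *Tsc22d4* at 0.811 and *Tsc22d1* at 0.850.

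*Klf15*, a transcription factor gene that glucocorticoids induce in many tissues, rose by 1.88 in Flox mice and by 1.97 in knockouts, with adjusted p values of 0.00239 and 0.000881 by limma. *Sesn1*, which encodes a stress-responsive inhibitor of mTORC1 signalling, rose by 1.58 and by 0.83, with adjusted p values of 0.00133 and 0.0116. The difference between its responses was -0.75 with an adjusted p of 0.217. *Vldlr*, a lipoprotein receptor gene, rose by 1.21 and 1.01, and *Adamts1*, a gene of a secreted metalloproteinase, rose by 1.52 and 1.71. Since these genes were chosen for their likeness to *Tsc22d3*, their pattern is a description.

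**Figure D3:**
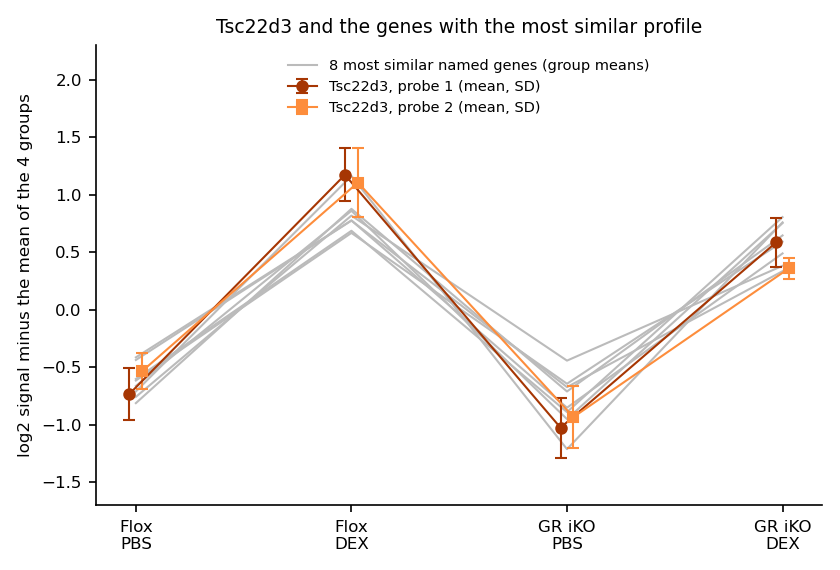
Log2 signal of the 4 groups, each gene centred on the mean of its groups, for the 2 *Tsc22d3* probes (probe 1 is the brighter; points are means and bars the SD) and for the 8 most similar named genes (grey lines, group means). All lines are higher after DEX in both genotypes.

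The 6 lists of genes around the family were counted in the same fits, with the brightest probe of each gene, and the plot of list changes shows each gene. The regulators of GILZ comprised the receptors *Nr3c1* and *Nr3c2* and the FOXO genes *Foxo1*, *Foxo3* and *Foxo4*, 5 of 5 on the array. In Flox mice 0 of 5 were called after DEX by limma, with 1 of 5 at an unadjusted p under 0.05, beside 19.0% of all probes, and a median change of -0.24. Among knockouts 1 was called higher, *Foxo4* by 1.25 (adjusted p = 0.0402 by limma), and 1 lower, *Nr3c1*, which fell by 0.55 (adjusted p = 0.0143), with a median of 0.34, where 8.15% of all probes were called higher and 3.53% lower. The *Foxo4* call ended in the authors' table (1.01, adjusted p = 0.0850) and under quantile normalization within 3 parts of the array rows (0.65, adjusted p = 0.201).

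*Nr3c1*, the floxed gene, had 1.40, 1.48, 1.46 and 1.28 in Flox PBS mice and 1.13, 1.13 and 1.34 in Flox DEX mice on its brightest probe. In GR iKO mice it had 0.79, 0.44 and 0.28 after PBS and -0.14, -0.08, 0.04 and 0.00064 after DEX. All 7 GR iKO mice were below all 7 Flox mice, and the 4 GR iKO DEX mice, which had the higher *Tsc22d3* signal of the 2 GR iKO groups, had the lowest *Nr3c1* signal. Between genotypes *Nr3c1* differed by -0.90 after PBS (adjusted p = 0.0162 by limma) and by -1.24 after DEX (adjusted p = 0.00319). Of its 4 probes, 3 were called in each of these comparisons, and the other was at -1.07 after PBS (adjusted p = 0.636) and -0.35 after DEX (adjusted p = 0.777). Its fall with DEX in GR iKO mice was called on 1 of 4 probes, the others being at -0.31, -0.21 and 0.43 with adjusted p values of 0.133, 0.410 and 0.605. *Nr3c2*, the mineralocorticoid receptor gene, was not called, at -0.24 in Flox mice (adjusted p = 0.401) and -0.10 in knockouts (adjusted p = 0.693).

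The list of proteins that GILZ binds had 8 of 9 genes on the array. Among knockouts 1 of 8 was called, *Trp53*, which rose by 0.91 (adjusted p = 0.00591 by limma), where 11.7% of all probes were called. Its change in Flox mice was 0.20 (adjusted p = 0.559), and the responses differed by 0.71 (adjusted p = 0.214). The median of this list was 0.23 in Flox mice and 0.22 in knockouts.

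For the NRBP and WNK partners, 7 of 8 genes were on the array and limma called 0 of 7 in each DEX response, with 3 of 7 in Flox mice and 2 of 7 in knockouts at an unadjusted p under 0.05, beside 19.0% and 27.7% of all probes. Their medians were 0.25 and 0.07.

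The TGF-beta signalling list, with 11 of 11 genes on the array, had 1 call in Flox mice, *Smad6*, an inhibitory SMAD gene, which fell by 0.62 (adjusted p = 0.0439 by limma), where 1.54% of all probes were called lower. At an unadjusted p under 0.05 were 5 of 11 in Flox mice, beside 19.0% of all probes. Among knockouts limma called 0 of 11, with 2 of 11 at an unadjusted p under 0.05, beside 27.7% of all probes. The medians were -0.21 and -0.17.

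Other glucocorticoid-induced genes, 15 of 16 on the array, had 8 calls in Flox mice and 5 in knockouts, all higher, where 1.63% and 8.15% of all probes were called higher, with medians of 0.82 and 0.61 beside 0.06 and 0.09 for all probes. In Flox mice the 4 with the smallest adjusted p were *Fkbp5* (3.65), a GR co-chaperone gene, *Sgk1* (3.22), a kinase gene of sodium transport, *Pdk4* (3.35), of pyruvate metabolism, and *Mt2* (2.52), a metallothionein gene. In GR iKO mice they were *Pdk4* (3.49), *Klf15* (1.97), *Dusp1* (0.88), a phosphatase gene, and *Errfi1* (0.69), a feedback inhibitor of EGFR. The responses of *Fkbp5* and *Sgk1* differed between genotypes by -2.71 and -2.56 (adjusted p = 0.0436 for each), while those of *Pdk4* and *Klf15* differed by 0.14 and 0.10 with adjusted p values of 0.956 and 0.951. The median difference of the list was -0.34, with 4 of 15 genes above 0, beside -0.29 for *Tsc22d3*. The calls of *Fkbp5* and *Sgk1* ended in the authors' log2 table (adjusted p = 0.0528 for each, 0 of 15 genes called) and stayed under quantile normalization within 3 parts of the array rows (adjusted p = 0.0292 for each, 3 of 15 genes called).

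The NF-kB target genes, whose transcription GILZ is known to restrain, were 12 of 12 on the array, and 8 of them were well above background throughout at least 1 group. In Flox mice 3 were called, all lower: *Ccl2* (-3.14), *Cxcl10* (-3.40) and *Il1b* (-2.21), where 1.54% of all probes were called lower. Among knockouts 4 were lower, among them *Cxcl10* (-3.55), *Ccl2* (-2.29) and *Il1b* (-2.03), and *Ptgs2*, the cyclooxygenase-2 gene, rose by 1.10 (adjusted p = 0.0173 by limma), where 3.53% of all probes were called lower and 8.15% higher. In the authors' table the calls of *Ptgs2* in knockouts (0.68, adjusted p = 0.0993) and of *Il1b* in Flox mice (adjusted p = 0.0580) ended, and both stayed under quantile normalization within 3 parts of the array rows (adjusted p = 0.0187 and 0.0104). In Flox mice the list still held 3 calls in the authors' table, all lower, so a gene not called on the main values was called there. The medians were -0.85 and -0.62, and limma called 0 of 12 for the difference between the responses, with 1 of 12 at an unadjusted p under 0.05, beside 12.1% of all probes.

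**Figure D4:**
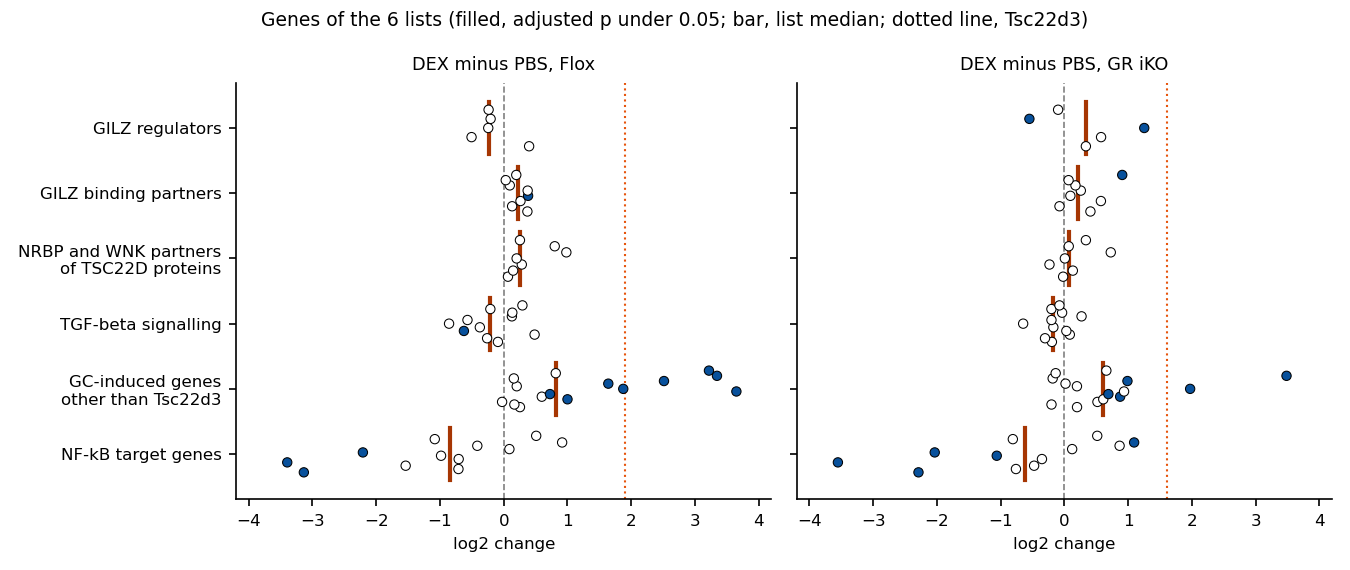
Log2 change after DEX of each gene of the 6 lists (1 circle per gene, filled at an adjusted p under 0.05) in Flox and in GR iKO mice, with a bar at the list's median and a dotted line at the change of *Tsc22d3* (1.91 and 1.61). The glucocorticoid-induced genes reach 3.65 in Flox mice and 3.49 in knockouts, and the NF-kB targets -3.40 and -3.55.

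Marker genes of the cells that a colon sample can hold were read on the same arrays, as the mean log2 signal of each list in the order Flox PBS, Flox DEX, GR iKO PBS and GR iKO DEX. Epithelium markers (8 of 8, *Krt8* the most abundant) averaged 5.71, 5.70, 5.68 and 5.74. Colonocyte markers (5 of 6, *Guca2a*) averaged 6.39, 6.20, 6.31 and 6.16, and goblet cell markers (6 of 6, *Clca1*) 7.06, 7.30, 6.82 and 7.17. Distal colon markers (4 of 4, *Hoxb13*) averaged -0.63, -1.40, -1.93 and -1.58, with 1 GR iKO PBS mouse, number 2, at -4.76. Small intestine markers (8 of 8, *Apob*) averaged -3.13, -1.88, -2.83 and -2.25.

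Cells outside the epithelium were represented by the remaining lists. Smooth muscle markers (6 of 6, *Cnn1*) averaged 5.45, 6.10, 5.76 and 5.99, fibroblast markers (6 of 6, *Dcn*) 3.09, 2.62, 3.19 and 2.86, and endothelial markers (6 of 6, *Kdr*) -1.71, -2.33, -1.74 and -2.28. Macrophage markers (6 of 6, *Cd14*) averaged -0.24, -0.98, -0.32 and -0.84, T cell markers (6 of 6, *Lck*) -3.29, -3.54, -2.71 and -3.20, and B or plasma cell markers (6 of 6, *Jchain*) -1.48, -2.24, -0.66 and -1.63. After DEX, the smooth muscle mean was higher and the other 5 means lower in each genotype, and their part in the *Tsc22d3* result was not tested.

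Exocrine pancreas markers (9 of 9, *Clps*) differed most, of the 12 lists, between mice of a group in 3 of the 4 groups, with SDs of 3.90 in Flox PBS, 5.55 in Flox DEX and 3.19 in GR iKO DEX. Their means were -2.97, 5.34, -0.24 and -2.88 in the Flox PBS mice, 7.24, 7.40 and -2.29 in the Flox DEX mice, -3.28, -3.11 and -2.91 in the GR iKO PBS mice, and -2.17, 3.69, -2.17 and 3.00 in the GR iKO DEX mice. On the 9 arrays with a mean at or below 0, which leave 1 Flox DEX mouse (3.24 for *Tsc22d3*) and 2 GR iKO DEX mice (3.05 and 3.04), *Tsc22d3* was higher after DEX by 1.71 in Flox mice and by 1.78 in knockouts. The adjusted p was 0.110 in Flox mice, where the lone DEX mouse was assumed to vary like the other groups, and 0.0165 in knockouts. Over all alternatives the adjusted p ran from 0.000289 to 0.110 in Flox mice and from 0.000399 to 0.0240 in knockouts. On these arrays the difference between the responses was 0.07 and that between genotypes after DEX was -0.19, in place of -0.29 and -0.59 on all arrays. *Tsc22d2* was higher by 0.91 and 0.71 there, with adjusted p values of 0.307 and 0.125, where the alternatives ran from 0.0182 to 0.307 and from 0.00738 to 0.539.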

How the data were processed

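The values are scanner readings of 14 1-colour Agilent arrays, 1 per mouse, in 4 groups from the sample titles. Spot intensity (processed signal), which the authors deposited in the scanner files, was background subtracted and spatially detrended by Agilent Feature Extraction, and the log2 table that the authors deposited was, per the processing notes, made with Partek 6.6. The table was found to be quantile normalized: its sorted columns differed by at most 0.0024, and each of 14 columns was closest to its own array.

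The main values were log2 processed signal minus the 75th percentile of each array (566 to 774 intensity units), without control spots and outlier flags, with repeated spots of 245 probes averaged. Per array, 28266 to 30510 probes were well above background. Accessions were named through the RefSeq table of build GRCm38.p6, which named 28223 of 41174 probes and left 12951 without a symbol. limma 3.58.1 in R 4.3.3 fitted 1 mean per group to all probes, and p-values were adjusted by Benjamini-Hochberg over all probes tested. Tables and figures used Python 3.11.15, pandas 2.3.3, NumPy 2.4.6 and matplotlib 3.10.9. The brightest probe stood for a gene.

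Genes were named by rule: the members with every probe, *Nr3c1* and *Nr3c2*, up to 4 genes with the smallest adjusted p among those called per list in each DEX response and in their difference, the 8 most similar profiles, and the most abundant gene of a marker list. *Foxo1* and *Foxo3* were named only to say what their list held. The members and lists were chosen with earlier results of these data known. The alternatives were the authors' table, normexp (offset 50, on the median signal because the files hold no mean), quantile normalization over the array and within 3 parts of its rows, a filter on dim probes, the compared groups alone, a replicate block, averaging the probes of a gene, a 2-fold minimum, the methods' t-test, an exact permutation test and each array left out. The arrays low in exocrine pancreas genes were chosen after the data were seen. Slide could not be fitted as a block, since each slide held 1 group.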

Additional observations from a re-analysis of the deposited data

Results flagged for a closer look

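On the brightest *Tsc22d3* probe, Flox PBS mouse 3 had a log2 signal of 1.22, while the other 3 mice of its group had 1.65 to 1.70. Its gap to the nearest mouse made up 0.899 of the range of the group. This was 1 of 16 groups of 4 mice tested over the 8 probes, and chance alone sets apart about 1 in 20 such groups. Groups of 3 mice were not tested.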

How the results depend on the processing

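*Tsc22d3* was higher after DEX in both genotypes under all 13 other settings, and was called under 11 of the 13 in Flox mice and all 13 in knockouts. In Flox mice the methods' t-test with Benjamini-Hochberg gave 1.91 with an adjusted p of 0.0540, and the arrays low in exocrine pancreas genes, which keep 1 Flox DEX mouse, gave 1.71 with 0.110. On those arrays the difference between its responses was 0.067, in place of -0.29. Its difference between genotypes after DEX, -0.59, passed without adjustment by the methods' t-test (p = 0.0173) and by the exact permutation test (p = 0.0286). With each array left out in turn, *Tsc22d3* stayed called in 14 of 14 fits.

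*Tsc22d2* in Flox mice was the call that depended most on the settings. It was not called at 0.80 under normexp (adjusted p = 0.205), at 0.63 under quantile normalization within 3 parts of the array rows (0.0568), at 0.75 with only the groups compared (0.109), at 0.75 under the methods' t-test with Benjamini-Hochberg (0.167), at 0.75 under the exact permutation test (0.0571), at 0.75 with a 2-fold minimum, or at 0.91 on the arrays low in exocrine pancreas genes (0.307). Relative to the median of all probes, the *Tsc22d2* rise in Flox mice was 0.28 under normexp and 0.68 on the main values. With each array left out, the rise as measured ran from 0.65 to 0.91 and was called in 10 of 14 fits. In knockouts *Tsc22d2* was not called at 0.50 under normexp (0.539), at 0.41 with the mean of its probes (0.0538), at 0.77 with a 2-fold minimum, or at 0.71 on the arrays low in exocrine pancreas genes (0.125). The difference between its responses was -0.064 in the authors' table, -0.30 under normexp, -0.063 under quantile normalization, -0.10 with the mean of its probes and -0.20 on the arrays low in exocrine pancreas genes, and ran from -0.14 to 0.12 with each array left out. Its value under normexp was 0.013 relative to the median of all probes.

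With the replicate block, *Tsc22d2* in Flox mice was at 0.715 (adjusted p = 0.0796). Whether replicate numbers pair arrays across groups was checked on deviations from the group means: over 18 pairs of the same number the correlation ran from -0.224 to 0.311, with 8 over 0.1, and 6 of 14 arrays were closest to an array of their own number, so the numbers were not taken as pairs.

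*Tsc22d1* passed without adjustment by the methods' t-test at 0.28 in knockouts after DEX (p = 0.0483) and at 0.32 between genotypes after DEX (p = 0.00928), the latter also by the exact permutation test at 0.32 (p = 0.0286). *Tsc22d4* was at -0.035 in Flox mice under normexp, and was called in knockouts at 0.57 with the mean of its probes (adjusted p = 0.0192). Between genotypes it was at -0.000105 after DEX on the arrays low in exocrine pancreas genes, and after PBS it ran from -0.20 to 0.049 with each array left out, above 0 only without GR iKO PBS mouse 3.

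Of the 4 genes, each counted by its brightest probe, 2 were called in Flox mice. The number was 1 under normexp, 1 under quantile normalization within 3 parts of the rows, 1 with only the groups compared, 1 with the replicate block, 1 with a 2-fold minimum and 1 under the exact permutation test. It was 0 under the methods' t-test with Benjamini-Hochberg and 0 on the arrays low in exocrine pancreas genes, and 1 to 2 with each array left out. In knockouts 2 were called, and 1 under normexp, 1 with a 2-fold minimum and 1 on the arrays low in exocrine pancreas genes. Under the methods' t-test without adjustment, *Tsc22d1* passed in knockouts as well. Between genotypes after DEX 0 were called, and 2 under the methods' t-test without adjustment and 2 under the exact permutation test.

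Among the lists, calls of the GILZ regulators in knockouts went from 2 to 1 (*Foxo4*) in the authors' table and under quantile normalization within 3 parts of the rows. Calls of TGF-beta genes went from 1 to 2 under the latter in Flox mice and from 0 to 1 in the authors' table in knockouts, and those of the glucocorticoid-induced genes in the difference between responses went from 2 to 0 in the authors' table and to 3 within 3 parts of the rows. NF-kB target calls in knockouts went from 5 to 4 in the authors' table (*Ptgs2*). Both *Tsc22d2* probes and the dimmest *Tsc22d4* probe, at 20 to 131 intensity units, lie nearest to background. The cause of these differences was not tested.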
